A study of Mus musculus with 4 samples.

Results

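The cells described here are the WT cells of day 6 embryoid bodies (EBs) that carried RNA of the mesodermal transcription factor genes Foxc2, Pax3 and Alx1 or of genes read together with them. EBs are aggregates of embryonic stem cells (ESCs) that differentiate without added lineage factors. A WT cell was taken when it had at least 2000 UMIs (unique molecular identifiers, each standing for 1 captured RNA molecule) and 1000 detected genes, at least 1 UMI in 3 or more of the 7 genes Foxc2, Ebf2, Pax3, Alx1, Twist1, Col13a1 and Col23a1, and UMIs in fewer than 3 of the 6 genes Tnnt2, Hand1, Hand2, Foxf1, Tnni1 and Tbx20. This rule chose 655 of the 9998 WT cells past the depth filter, which were 156 of 3660 cells of WT replicate 1 (4.26%, exact Clopper-Pearson 95% interval 3.63 to 4.97) and 499 of 6338 cells of WT replicate 2 (7.87%, 7.22 to 8.56). The remaining 3504 and 5839 WT cells are called the other WT cells below.

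The study set LSD1 KO against WT, with 2 biological replicates of each and 1 droplet scRNA-seq library per replicate. The LSD1 KO lines were clones of the mouse ESC line V6.5 in which the promoter and first exon of Lsd1 (Kdm1a), the gene of a histone demethylase, had been deleted with CRISPR/Cas9, and WT was the same ESC line without the deletion. All EBs were grown as hanging drops in serum medium without LIF or the kinase inhibitors that hold ESCs undifferentiated, were harvested at day 6 and were dissociated to single cells with TrypLE. Which LSD1 KO clone gave which library is not given in the sources used here. Past the depth filter the LSD1 KO libraries held 4850 and 2450 cells and the WT libraries 3660 and 6338. The totals were 72285943 to 75406512 UMIs per library, and the median per cell was 9593 to 24641 UMIs. The 2 WT libraries shared 6 cell barcodes, in the range of 2 to 12 seen over all pairs of libraries. Kdm1a stood at 1.09 and 0.835 counts per 1000000 UMIs (CPM) in the LSD1 KO libraries, against 217 and 229 CPM in the WT libraries. The counted 3′ tags lie outside the deleted promoter and first exon, so they show the loss of the transcript and do not check the deletion itself.

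In the mouse embryo, mesoderm that leaves the primitive streak sorts itself by position. The paraxial mesoderm beside the neural tube makes the somites, which give axial skeleton, dermis and muscle, and its unsegmented head part gives cranial mesenchyme, while the lateral mesoderm makes heart, body wall and extraembryonic tissue. Foxc2 and its relative Foxc1 are forkhead factors of paraxial and head mesoderm, Pax3 is a paired-box factor of the dorsal somite, dorsal neural tube and neural crest, and Alx1 is a paired-class homeodomain factor of facial mesenchyme. Ebf2 belongs to the early B cell factor family of helix-loop-helix regulators, Twist1 is a basic helix-loop-helix factor of mesenchyme, and Col13a1 and Col23a1 encode collagens that stay anchored in the cell membrane. Among the genes that excluded a cell, Hand1, Hand2, Foxf1 and Tbx20 encode factors of lateral and heart mesoderm, and Tnnt2 and Tnni1 encode troponins of the muscle filament.

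On mm9, the genome build of the deposited counts, Foxc2 is at chr8:123640071-123642792 on the plus strand. Foxf1, which is on the other side of the rule, lies upstream of it at chr8:123608286-123610851 on the same strand, and 29.2 kb separate the end of Foxf1 from the start of Foxc2. Pax3 is at chr1:78097842-78193709 on the minus strand, Alx1 at chr10:102470481-102491685 on the minus strand and Ebf2 at chr14:67852129-68048604 on the plus strand. Twist1 is at chr12:34642536-34644682 on the plus strand, Col13a1 at chr10:61300984-61441856 on the minus strand and Col23a1 at chr11:51103422-51397420 on the plus strand. The coordinates are those of whole genes in the GENCODE annotation of this build.

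Pax3 and Alx1 have homeodomains of the paired class, whose core recognition letters are TAATTA, so RefSeq promoters of the genes that stood highest in these cells were searched for it. The 2 promoters below, 250 bases before to 50 bases after the gene start on GRCm38.p6, are shown because their genes, Ptgds and Cer1, had the highest ratios, of genes at 50 CPM or more, to the cardiac cells described further on, and because both hold TAATTA, which is in capitals. Ptgds encodes the lipocalin-type prostaglandin D synthase, and its promoter is at chr2:25469700-25469999 on the minus strand. Cer1 encodes Cerberus, a secreted inhibitor of Nodal, BMP and Wnt ligands, and its promoter is at chr4:82885102-82885401 on the minus strand.
Ptgds: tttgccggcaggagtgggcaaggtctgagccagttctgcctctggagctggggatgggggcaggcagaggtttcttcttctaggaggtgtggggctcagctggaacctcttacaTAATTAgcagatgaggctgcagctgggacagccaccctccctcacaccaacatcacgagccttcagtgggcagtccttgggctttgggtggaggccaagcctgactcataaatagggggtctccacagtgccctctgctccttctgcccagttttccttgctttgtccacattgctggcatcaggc
Cer1: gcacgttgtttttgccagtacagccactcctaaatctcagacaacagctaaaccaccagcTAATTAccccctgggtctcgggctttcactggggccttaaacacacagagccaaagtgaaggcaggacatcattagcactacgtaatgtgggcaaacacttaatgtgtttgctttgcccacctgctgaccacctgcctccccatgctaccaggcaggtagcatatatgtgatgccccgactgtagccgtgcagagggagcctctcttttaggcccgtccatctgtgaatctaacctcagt
TAATTA, which reads the same on both strands, began 136 bases before the start of Ptgds and 190 bases before that of Cer1. It was in 5.29% of all 32851 promoters of the same length, a match is only these letters in this window, and no binding was measured. Of the 10 such genes with the highest ratios to the other WT cells, 6 had an entry with 7 promoters. Of these, 1 held TAATTA and 4 held the E-box CANNTG read by basic helix-loop-helix factors. The E-box was in 72.3% of all promoters. The forkhead letters TGTTTAC, searched on both strands and in 3.65% of all promoters, were in none of the 7. Of the 10 genes with the highest ratios to the cardiac cells, 8 had an entry with 10 promoters. Of these, 2 held TAATTA, 8 the E-box and none the forkhead or EBF letters.

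The values of the 13 rule genes follow from how the cells were chosen and are given without a test. Summed over the chosen cells, Foxc2 stood at 34.9 and 46.5 CPM in WT replicates 1 and 2, against 0.894 and 1.88 CPM in the other WT cells. It had a UMI in 38.5% and 37.7% of the chosen cells, against 0.771% and 1.51% of the other WT cells. As a background, visceral endoderm-like WT cells, which should lack Foxc2, had a UMI of it in 0 of 218 cells, which allows up to 1.68%, and in 2 of 117 cells (1.71%). Median depths were 17396 and 10152 UMIs in the chosen cells, 14249 and 9558 in the other WT cells and 23827 and 11913 in the visceral endoderm-like cells. Intervals of counts and shares in this text cover counting error only.

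The remaining 6 genes ran the same way with different spreads. Ebf2 stood at 70.9 and 89.5 CPM in the chosen cells and at 1.23 and 2.79 CPM in the other WT cells. Pax3 stood at 39.5 and 81.3 CPM in the chosen cells, with 2.51 and 5.79 CPM in the other WT cells, and was the gene of the 7 whose level differed most between the 2 WT libraries. Alx1 stood at 39.8 and 58.0 CPM in the chosen cells and at 1.26 and 2.41 CPM in the other WT cells. Each of the 4 factors Foxc2, Ebf2, Pax3 and Alx1 had a UMI in fewer than 50% of the chosen cells, and no single factor defined them. Col23a1 was the most abundant, at 332 and 423 CPM in the chosen cells and 30.8 and 27.6 CPM in the other WT cells, and was read in 85.9% and 92.2% of the chosen cells. Twist1 stood at 148 and 127 CPM, against 24.8 and 20.6 CPM in the other WT cells, and Col13a1 at 66.3 and 75.7 CPM, against 9.41 and 9.48 CPM. Twist1 and Col13a1 had the smallest ratios of the 7 in both libraries. CPM of 3′ tags are set side by side here within a gene, since levels of different genes also depend on how each gene is captured.

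**Figure D1:**
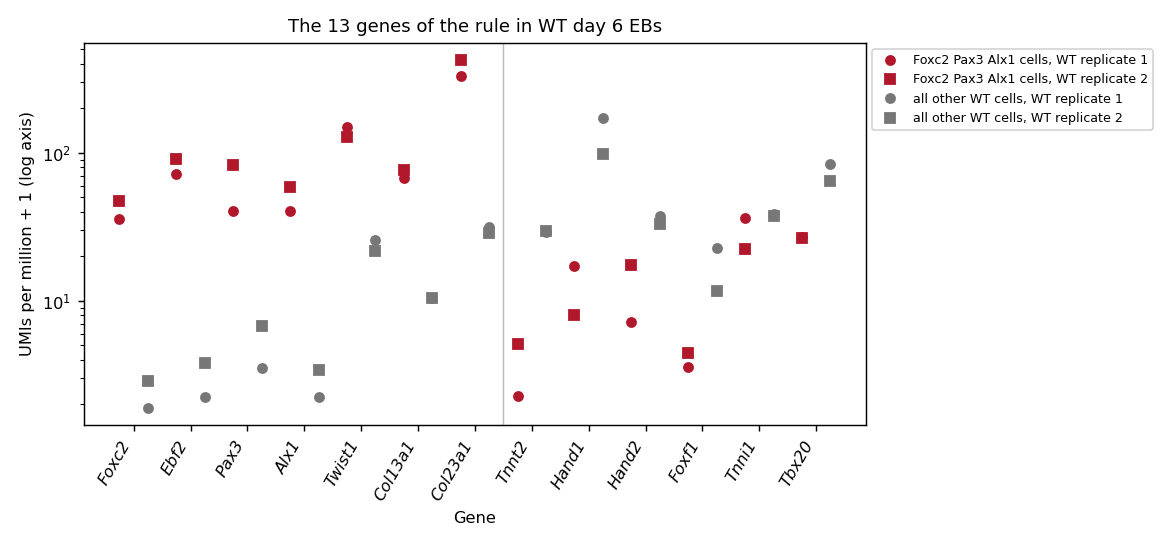
Level of the 13 rule genes, in CPM plus 1 on a log axis, summed over the chosen Foxc2 Pax3 Alx1 cells and over the other WT cells, with 1 point for each WT library. The 7 genes asked for lie higher in the chosen cells in both libraries (Foxc2 at 34.9 and 46.5 CPM against 0.894 and 1.88 CPM), which the choice of the cells fixes.

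Few of the chosen cells held all 7 genes. Exactly 3 of the 7 were read in 84 and 232 cells of WT replicates 1 and 2, just inside the threshold, and all 7 in 2 and 5 cells. Just outside it, 197 and 379 cells with fewer than 3 of the excluding genes had exactly 2 of the 7. The most frequent combination was Twist1 with Col13a1 and Col23a1 and none of the 4 other factors, in 22 and 47 cells, so 134 and 452 chosen cells had a UMI of at least 1 of Foxc2, Ebf2, Pax3 and Alx1. None of the 6 excluding genes was read in 67 and 292 chosen cells, 1 of them in 59 and 140, and 2 in 30 and 67. A further 19 and 44 cells had 3 of the excluding genes and fell just outside. Tnni1, in 32.1% and 15.8% of the chosen cells, and Tbx20, in 22.4% and 16.6%, were the excluding genes most often read in them, and Tnnt2 was read in 2.56% and 2.40%.

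The 4 factors overlapped in part, with any 1 of them read in 12.9% to 34.9% of the cells that held another. They are rule genes, chosen with earlier results of these data known, so their overlap is no independent support for the group. These shares are descriptive and are taken over all WT cells with fewer than 3 excluding genes, including those below the threshold of 3. Ebf2 was read in 29.6% and 33.3% of cells with a Foxc2 UMI, against 2.07% and 4.27% of cells without one. In WT replicate 1 the cells with Foxc2 were deeper (median 20140 UMIs, against 13734 without), while in WT replicate 2 the medians were 10304 UMIs with Foxc2 and 9598 UMIs without. Alx1 was read in 16.8% and 25.4% of cells with a Pax3 UMI and in 2.51% and 3.58% of cells without one, at median depths of 13335 and 9902 UMIs with Pax3 and 13979 and 9607 UMIs without. Depth therefore did not move with Pax3 in one direction. Genes that the rule did not use followed as well. Foxc1 was read in 57.1% and 40.4% of Alx1 cells, against 11.4% and 11.7% of cells without Alx1 (median depths 16565 and 10252 UMIs with Alx1, 13858 and 9592 UMIs without). Tcf15, which encodes the somite factor paraxis, was read in 36.6% and 20.5% of Foxc2 cells, against 2.29% and 2.28% of cells without Foxc2.

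The label mesenchyme-like was checked against 8 mesenchyme markers, and the data went against it in part. Pdgfra, the PDGF receptor of mesenchyme, stood at 90.3 and 72.6 CPM in the chosen cells, against 21.6 and 12.9 CPM in the other WT cells (log2 fold change 2.20, SE 0.12, adjusted p = 4.07e-12). The adjusted p-values in this text are from edgeR's quasi-likelihood test on UMI counts summed per library, with the library as a block and Benjamini-Hochberg adjustment over all genes tested. Cdh11, the cadherin of mesenchymal cells, stood at 200 and 233 CPM in the chosen cells and at 90.9 and 41.6 CPM in the other WT cells (1.75, SE 0.17, adjusted p = 8.64e-08), and Prrx1 also rose, by 1.67. The genes of fibrillar collagen and of the mesenchymal cytoskeleton did not rise with them. Col1a1 stood at 10.7 and 7.75 CPM in the chosen cells and 25.6 and 6.82 CPM in the other WT cells (−0.64, adjusted p = 0.0828), Col1a2 at −0.31 and Snai2 at 0.02 did not pass the test either, and Vim (−0.37) and Col3a1 (−2.20) fell. The sum of the 8 markers was 630 and 556 CPM in the chosen cells, 1290 and 848 CPM in cardiac and lateral mesoderm-like WT cells and 560 and 310 CPM in the other WT cells. The cells are therefore called Foxc2 Pax3 Alx1 cells, after 3 genes of the rule. The name is a handle only, since Ebf2 had a larger ratio to the other WT cells than any of the 3, and Col23a1 and Twist1 were read in more of the cells.

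Markers of further cell types were read in the same way. Paraxial mesoderm markers (7 genes) summed to 105 and 96.9 CPM in the Foxc2 Pax3 Alx1 cells, against 13.2 and 17.9 CPM in the other WT cells. Of these, Msgn1 and Tbx6, which mark presomitic mesoderm, were nearly absent. Msgn1 had 0 UMIs in all WT cells. Tbx6 stood at 0.971 and 1.08 CPM in the Foxc2 Pax3 Alx1 cells and 0.455 and 0.513 CPM in the other WT cells. Dll1, another of the 7, stood at 9.38 and 9.55 CPM, against 0.624 and 1.75 CPM. Most of the paraxial sum came from Foxc1 and Tcf15, whose levels are given below, and Meox1 and Tbx18 added little. Cranial mesoderm markers (6 genes) summed to 27.2 and 40.9 CPM, against 22.1 and 19.1 CPM in the other WT cells. In the cardiac and lateral mesoderm-like WT cells they summed to 41.7 and 13.4 CPM. Neural crest markers (7 genes) summed to 61.8 and 52.6 CPM, against 38.1 and 40.1 CPM in the other WT cells. The defining crest factors Sox10 (3 and 5 UMIs), Foxd3 (1 and 1 UMI), Tfap2b (0 UMIs) and Pax7 (1 and 0 UMIs) were at or near 0 in the Foxc2 Pax3 Alx1 cells. Visceral endoderm markers summed to 4.21 and 16.6 CPM, against 299 and 108 CPM in the other WT cells, and epithelial markers to 917 and 490 CPM, against 2270 and 1740 CPM. Endothelial markers (5 genes) summed to 120 and 77.7 CPM, against 65.5 and 38.8 CPM in the other WT cells, and 12 (7.69%) and 25 (5.01%) of the Foxc2 Pax3 Alx1 cells had 2 or more of them. No doublet caller was run. Cells over 3 times their library's median depth were 2.56% and 1.60% of the Foxc2 Pax3 Alx1 cells and 4.02% and 1.58% of the other WT cells.

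Against the other WT cells of the same libraries, the Foxc2 Pax3 Alx1 cells carried more RNA of paraxial mesoderm factors. They carried less RNA of visceral endoderm, epithelial, pluripotency and heart genes. The exclusion in the rule by itself favours the fall of heart genes. Some paraxial genes passed the filter on low counts only through the Foxc2 Pax3 Alx1 cells, which favours rises. Of 15 paraxial genes tested 8 rose, with DESeq2 4 of 15, without the library block 5 of 15 and with cells thinned before the rule 2 of 10. Cranial, retinoic acid and Wnt genes went both ways, with single genes such as Crabp1, Stra6 and Sfrp1 higher. In all, 967 of 15483 genes were higher (6.25%) and 1353 lower (8.74%) at an adjusted p under 0.05. Without the library block these were 406 and 547, and with scaling by library totals alone 1161 and 1047. The cells on either side were separated by the rule genes and come from the same 2 libraries, so a call says which genes went with the rule in both libraries.

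Of the 10 largest rises among genes at 50 CPM or more, the highest was Ptgds, at 343 and 232 CPM in Foxc2 Pax3 Alx1 cells of WT replicates 1 and 2, against 10.5 and 26.3 CPM in the other WT cells (log2 fold change 3.96, SE 0.25, adjusted p = 3.58e-11). Ptgds lies at chr2:25322229-25325566 on mm9, and its promoter is the first printed above. Cped1 stood at 52.4 and 53.1 CPM in the Foxc2 Pax3 Alx1 cells and 4.03 and 4.12 CPM in the other WT cells (3.61, SE 0.15). Ebf1, the founding member of the early B cell factor family, stood at 97.7 and 119 CPM in the Foxc2 Pax3 Alx1 cells and 9.39 and 13 CPM in the other WT cells (3.20, SE 0.11, adjusted p = 5.19e-15). In none of these 3 did the groups overlap.

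Crabp1, a cytoplasmic binding protein of retinoic acid, stood at 134 and 131 CPM in the Foxc2 Pax3 Alx1 cells, against 14.3 and 17.7 CPM in the other WT cells (2.97, SE 0.11). Sfrp1, a secreted Wnt antagonist, stood at 265 and 351 CPM, against 35.9 and 78.5 CPM (2.43, SE 0.12), and was the most abundant of the 10 in WT replicate 2. Lama1 (laminin alpha 1 chain of basement membranes, 3.12), Pappa (a protease that cleaves IGF-binding proteins, 2.95), Mfap4 (a microfibril-associated glycoprotein, 2.91), Cpne8 (a copine, 2.77) and Prrx2 (a paired-related homeodomain factor of mesenchyme, 2.43) complete the group. Both libraries of the Foxc2 Pax3 Alx1 cells stood above both of the other WT cells for each of the 10, which the rule for naming them asked for.

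**Figure D2:**
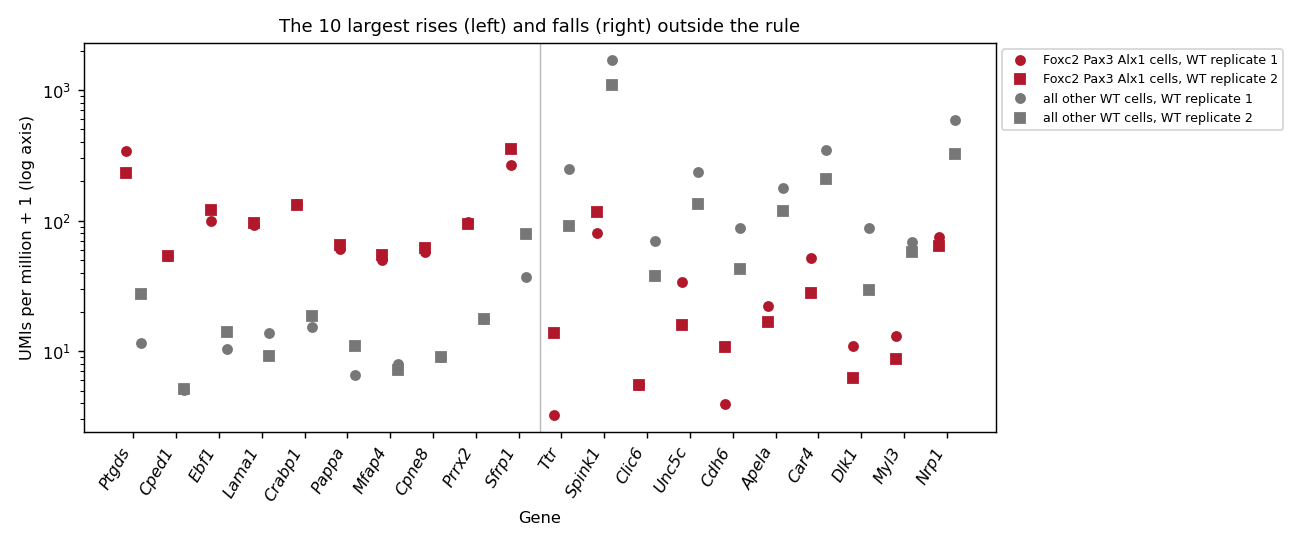
Level of the 10 genes with the largest rises and the 10 with the largest falls in Foxc2 Pax3 Alx1 cells against the other WT cells, in CPM plus 1 on a log axis, with 1 point for each WT library and cell group. Ptgds (343 and 232 CPM against 10.5 and 26.3 CPM) and Ttr (2.27 and 12.8 CPM against 249 and 90.6 CPM) lie farthest apart.

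The largest falls included products of visceral endoderm and of heart or vessel cells. Ttr, the transthyretin gene that visceral endoderm uses at a high level, stood at 2.27 and 12.8 CPM in the Foxc2 Pax3 Alx1 cells, against 249 and 90.6 CPM in the other WT cells (−4.08, SE 0.32, adjusted p = 1.74e-09). Spink1, which encodes a serine protease inhibitor, stood at 79.0 and 116 CPM in the Foxc2 Pax3 Alx1 cells and 1690 and 1100 CPM in the other WT cells (−3.86, SE 0.16). Free RNA, read in droplets of at most 100 UMIs, held Ttr at 210 and 115 CPM, and its part in the Ttr UMIs was not tested. Nrp1, a co-receptor of VEGF and semaphorins, stood at 74.4 and 63.1 CPM in the Foxc2 Pax3 Alx1 cells and 586 and 325 CPM in the other WT cells (−2.74, SE 0.12). Unc5c, a netrin receptor, stood at 32.7 and 14.8 CPM, against 237 and 133 CPM (−3.09, SE 0.12). Clic6 (−3.49), Cdh6 (a cadherin, −3.07), Apela (a ligand of the apelin receptor, −3.06), Car4 (a carbonic anhydrase, −2.93), Dlk1 (a Notch-related membrane protein, −2.88) and Myl3 (a myosin light chain of heart, −2.78) were the other falls.

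By role, the paraxial mesoderm and somite list comes first. Of its 20 genes 15 passed the filter on low counts, some of them only through the Foxc2 Pax3 Alx1 cells, which by itself favours rises, and 8 rose and none fell. Over all genes tested the median log2 fold change was −0.01. With no filter on low counts 7 of 18 rose and 1 fell, with DESeq2 4 of 15 rose, and with cells thinned before the rule 2 of 10 rose. Tcf15 stood at 43.0 and 27.6 CPM in the Foxc2 Pax3 Alx1 cells and 1.72 and 2.42 CPM in the other WT cells (3.97, SE 0.24, adjusted p = 2.87e-11). The Notch ligand genes Dll1 (9.38 and 9.55 CPM, against 0.624 and 1.75 CPM) and Dll3 (62.8 and 30.3 CPM, against 6.64 and 8.33 CPM) rose by 2.97 and 2.47. Mesp2, which sets the somite boundary, rose by 2.51 at 4.85 and 1.98 CPM in the Foxc2 Pax3 Alx1 cells, against 0.270 and 0.786 CPM. Lfng, a Notch-modifying glycosyltransferase of the segmentation clock, also rose, by 1.25. Tbx18, Uncx and Ripply1 passed the test too, at no more than 1.62 CPM in any library.

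The cranial and facial mesenchyme factors split. Of 22 genes tested 6 rose and 5 fell, with a median of 0.25. Foxd2 (4.02), Six2 (3.04), Prrx2 (2.43), Foxc1 (2.11), Tbx1 (1.85) and Prrx1 (1.67) rose. Foxc1 stood at 49.5 and 56.6 CPM in the Foxc2 Pax3 Alx1 cells and 10.3 and 13 CPM in the other WT cells. Msx2 stood at 4.85 and 4.14 CPM in the Foxc2 Pax3 Alx1 cells and 52.9 and 30.7 CPM in the other WT cells (−3.22). Msx2, Msx1 (−2.21), Pitx1 (−1.34) and Twist2 (−1.14) were among those that fell. Alx4, a paralog of Alx1, had 0 and 2 UMIs in all of the Foxc2 Pax3 Alx1 cells. In the EBF family, Ebf3 rose by 1.78 at 6.47 and 10.4 CPM in the Foxc2 Pax3 Alx1 cells, against 2.61 and 2.18 CPM, and Ebf4 fell by 1.30. Of 11 neural crest genes tested, Snai1 (1.68), Ets1 (0.53) and Sox9 (0.46) rose and Erbb3 (−1.84) fell. Ets1 stood at −1.09, and did not pass, with cells thinned before the rule.

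Among mesenchyme and matrix genes 9 of 21 rose and 4 fell, with a median of 0.66. The risers included Lum (lumican, a proteoglycan of collagen fibrils, 3.19 at 6.47 and 4.86 CPM), Tgfbi (2.20) and the fibrillin gene Fbn1, at 83.5 and 86.7 CPM in the Foxc2 Pax3 Alx1 cells and 36.1 and 21.4 CPM in the other WT cells (1.55). Col3a1, Sparc (−0.75), Vim and Fn1 (−0.31) fell. Of 11 adhesion genes 4 rose, among them the integrin gene Itga8, at 37.9 and 41.1 CPM, against 6.21 and 5.29 CPM in the other WT cells (2.71, SE 0.16), and the neural cell adhesion gene Ncam1, at 129 and 143 CPM, against 35.9 and 41.8 CPM (1.73, SE 0.10).

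Signalling genes moved by component. Of 12 retinoic acid genes 3 rose and 2 fell, with a median of 0.39: Crabp1 and the retinol receptor gene Stra6 (14.6 and 9.91 CPM, against 1.35 and 1.85 CPM, 2.82) rose with the degrading enzyme gene Cyp26a1 (0.69), and the receptor gene Rarb (−0.80) was among those that fell. Of 11 hedgehog genes 6 rose and 2 fell, with a median of 0.44. The co-receptor genes Boc, at 35.9 and 36.8 CPM in the Foxc2 Pax3 Alx1 cells and 7.69 and 5.92 CPM in the other WT cells (2.36, SE 0.16), and Gas1 (1.73) rose, as did Gli1 (1.70), a transcription factor gene that the pathway itself turns on. The ligand gene Shh (−0.79) and Hhip (−1.5), which encodes a binding protein of the ligand, fell. Of 17 BMP and Id genes 2 rose and 7 fell, with a median of −0.29. Bmp4 stood at 14.6 and 8.11 CPM in the Foxc2 Pax3 Alx1 cells, against 53.4 and 39.7 CPM in the other WT cells (−2.17), and the BMP and activin antagonist gene Fst rose by 1.43. The Wnt list (5 higher and 4 lower of 21) and the list of PDGF and FGF signalling genes (2 and 6 of 18) went both ways. The Notch list had 3 higher and none lower of 11, and the ephrin and axon guidance list 6 and 7 of 20.

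Lists of other cell types mostly fell. Of 20 heart genes 13 fell and none rose, with a median of −0.86, and of 14 lateral plate and extraembryonic genes 8 fell and none rose (−1.56). The rule took cells with 3 or more of the 6 excluding genes out of the Foxc2 Pax3 Alx1 cells alone. This favours falls of heart and lateral genes by construction. Of 14 visceral endoderm genes 12 fell and none rose, with a median of −2.80, or −2.48 with Hnf4a and Amn, which had 0 UMIs in the Foxc2 Pax3 Alx1 cells, set to a floor of 3 UMIs. Of 13 epithelial genes 12 fell and none rose (−1.96), and Epcam stood at 103 and 61.1 CPM in the Foxc2 Pax3 Alx1 cells, against 306 and 279 CPM (−1.97). Of 13 pluripotency genes 11 fell and none rose (−1.73). The streak and nascent mesoderm genes Mesp1 (2.26), Lhx1 (1.18) and Eomes (0.78) rose, and Cdx2, a factor of posterior and extraembryonic tissue, fell (−3.07). The endothelial list had 8 higher and none lower of 15, with a median of 0.87, but with 4 of the 7 genes asked for it had none higher and 2 lower of 14, and with cells thinned before the rule none higher and 1 lower of 13. Mitosis genes had 8 higher and none lower of 15 with a median of 0.27. Without the library block no mitosis gene was called, no streak gene rose and 1 of 11 fell, and 2 of 13 pluripotency genes fell. Of 15 DNA replication genes 1 rose and 1 fell, near the shares over all genes tested (6.25% and 8.74%).

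Of the smaller lists, 4 of 11 basement membrane genes fell and 2 rose, 2 of 14 neural progenitor genes fell and 1 rose, 2 of 11 neuron genes rose and 2 fell, 2 of 7 intermediate mesoderm genes fell and 1 rose, and 3 of 10 cartilage, bone and muscle genes fell and none rose. Of 14 stress and dissociation genes 3 rose and 1 fell. Over all genes tested 6.25% were higher and 8.74% lower, and no list was tested against those shares. The Hox genes, which mark position along the body axis, summed to 46.9 and 24.1 CPM in the Foxc2 Pax3 Alx1 cells, against 64.9 and 28.2 CPM in the other WT cells. Most of this came from groups 1 to 4, at 34.6 and 22.3 CPM, and groups 5 and up gave 12.3 and 1.80 CPM. Of 18 Hox genes tested Hoxb3 rose (1.12) and 3 fell.

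The closest comparison was with the cardiac and lateral mesoderm-like WT cells, chosen by the mirror of the rule (UMIs in 3 or more of the 6 excluding genes and in fewer than 3 of the 7). There were 810 and 933 of them in WT replicates 1 and 2, and 76 and 85 cells met both thresholds and belonged to neither group. Of the genes tested between them, 1165 of 12718 genes were higher (9.16%) and 1118 lower (8.79%) in the Foxc2 Pax3 Alx1 cells. Without the library block these were 617 and 571, and with scaling by library totals alone, which moved the median of all genes to 0.10, 1573 and 833.

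Among genes at 50 CPM or more, Ptgds was again the highest rise, with 343 and 232 CPM in the Foxc2 Pax3 Alx1 cells and 5.44 and 7.53 CPM in the cardiac and lateral cells (5.38, SE 0.19, adjusted p = 3.06e-10). Cer1, whose promoter is the other one printed, stood at 71.2 and 79.8 CPM, against 2.05 and 3.61 CPM (4.67, SE 0.19, adjusted p = 6.42e-10). Ebf1 stood at 97.7 and 119 CPM, against 5.23 and 5.26 CPM (4.24, SE 0.14). Dab1, an adaptor of reelin signalling, stood at 176 and 210 CPM, against 13 and 19.5 CPM (3.48, SE 0.13). Cpne8 (3.97), Pappa (3.78), Sfrp1 (3.56), Pdzd2 (a protein with PDZ domains, 3.30), Cped1 (3.12) and Ptprt (a receptor tyrosine phosphatase, 2.97) follow.

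The largest falls against the cardiac and lateral cells were led by Tdo2, a tryptophan dioxygenase, at 0.647 and 0.721 CPM in the Foxc2 Pax3 Alx1 cells, against 76.1 and 43.9 CPM (−6.39, SE 0.26, adjusted p = 7.15e-10). Bmp4 stood at 14.6 and 8.11 CPM in the Foxc2 Pax3 Alx1 cells, against 162 and 174 CPM in the cardiac and lateral cells (−4.08, SE 0.18). Msx2, a homeodomain factor downstream of BMP in many tissues, stood at 4.85 and 4.14 CPM, against 97.2 and 77.0 CPM (−4.36, SE 0.17). Unc5c stood at 32.7 and 14.8 CPM, against 674 and 645 CPM (−5.01, SE 0.19). Adamts2 (a procollagen protease, −5.73), Ttn (the giant sarcomere protein titin, −4.74), Plac1 (−4.28), Dlk1 (−4.12), Dpf3 (a chromatin remodelling subunit, −4.04) and Lypd6 (−4.04) are the remaining falls.

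Between these groups the lists of mesoderm genes went apart by role. Of the 20 paraxial genes only 6 passed the filter on low counts, some only through the Foxc2 Pax3 Alx1 cells, and these 6 rose, while with no filter 7 of 17 rose and none fell. Over all genes tested the median was 0.00. Tcf15 stood at 43.0 and 27.6 CPM in the Foxc2 Pax3 Alx1 cells, against 0.636 and 0.722 CPM in the cardiac and lateral cells (5.61, SE 0.29). Of 19 cranial and facial factors 11 rose and 7 fell, with a median of 1.91, and Tbx1, a T-box factor of head mesoderm, stood at 8.74 and 15.5 CPM, against 0.565 and 0.619 CPM (4.16). Of 8 retinoic acid genes 4 rose and none fell, and Stra6 was highest among them (4.77). Of 11 hedgehog genes 7 rose and 3 fell. Of 16 BMP and Id genes 9 fell and 3 rose, of 19 heart genes 17 fell and none rose, and of 11 lateral plate genes 9 fell and 1 rose. The cardiac and lateral cells were chosen by the excluding genes, which favours the falls of heart and lateral plate genes by construction. Of 13 Hox genes 11 fell and none rose, and the Hox sum was 46.9 and 24.1 CPM in the Foxc2 Pax3 Alx1 cells, against 190 and 109 CPM in the cardiac and lateral cells. Of 14 neuron genes 10 passed the filter on low counts, and 6 rose and none fell. Of 15 neural progenitor genes 9 passed, and 5 rose and none fell. With cells thinned before the rule 1 of 2 neuron and 2 of 4 neural progenitor genes rose. The neural progenitor markers summed to 45.9 and 69.2 CPM in the Foxc2 Pax3 Alx1 cells and 10.7 and 21.3 CPM in the cardiac and lateral cells. In the other WT cells they summed to 49.7 and 93.8 CPM, so they were not raised over WT cells in general.

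Of 19 mesenchyme and fibrillar matrix genes 8 fell and 3 rose, with a median of −0.11. This split did not hold with cells thinned before the rule, where 5 of 12 rose and 5 fell, and without the library block 1 of 19 rose and 2 fell. Col1a1 stood at 10.7 and 7.75 CPM in the Foxc2 Pax3 Alx1 cells, against 84.5 and 31.7 CPM in the cardiac and lateral cells (−2.62, SE 0.20, adjusted p = 2.54e-07). Vim stood at 263 and 185 CPM, against 685 and 520 CPM (−1.55), and Snai2, a factor of epithelial to mesenchymal transition, at 23.3 and 26.5 CPM, against 98.8 and 86.3 CPM (−1.98). Pdgfra was higher in the Foxc2 Pax3 Alx1 cells (90.3 and 72.6 CPM, against 62.8 and 42.8 CPM, 0.53, SE 0.11), and Cdh11 at 0.01 did not pass the test.

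**Figure D3:**
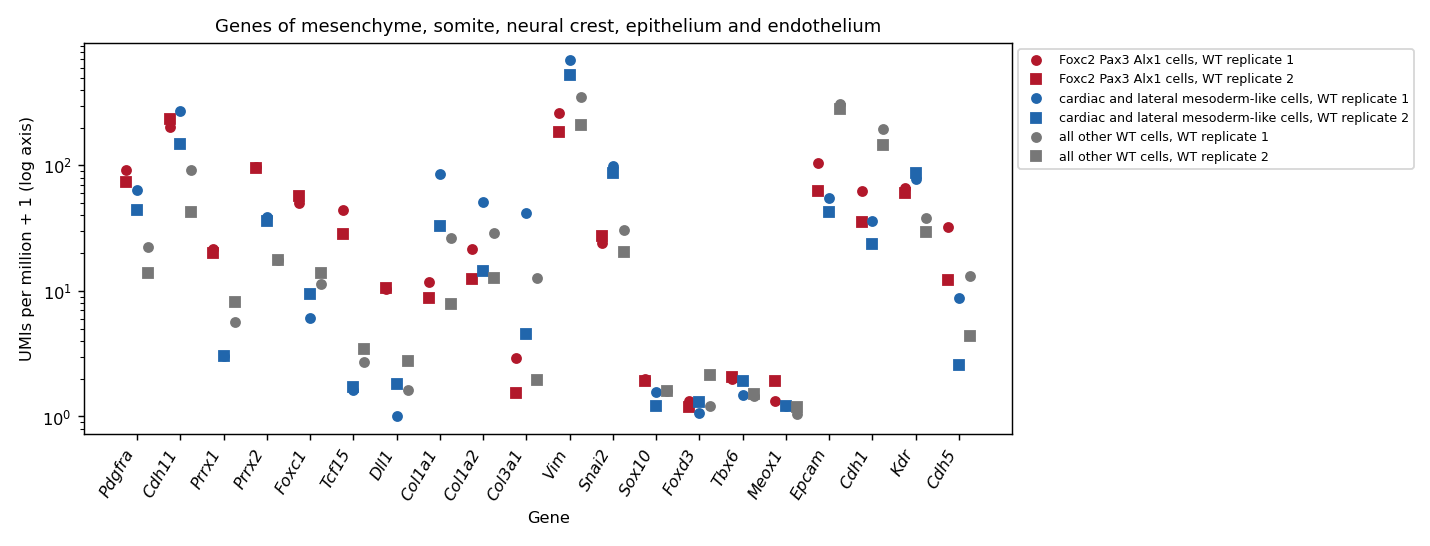
Level of 20 genes used for the check of the label and for the description by role, in CPM plus 1 on a log axis, in Foxc2 Pax3 Alx1 cells, cardiac and lateral mesoderm-like cells and other WT cells, with 1 point for each WT library. Tcf15 (43.0 and 27.6 CPM against 0.636 and 0.722 CPM in cardiac and lateral cells) and Col1a1 (10.7 and 7.75 CPM against 84.5 and 31.7 CPM) differ in opposite directions.

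The Foxc2 Pax3 Alx1 cells also varied among themselves. Cells with 4 or more of the 7 genes had more RNA of several genes outside the rule than cells with exactly 3. Cdh11 stood at 287 and 330 CPM in cells with 4 or more and at 127 and 122 CPM in cells with 3. Crabp1 stood at 226 and 177 CPM in cells with 4 or more and 57.6 and 77.4 CPM in cells with 3, and Sfrp1 at 395 and 440 CPM and 156 and 249 CPM. Ptgds differed less, at 366 and 248 CPM in cells with 4 or more and 324 and 214 CPM in cells with 3. Median depth was 18137 and 10485 UMIs in cells with 4 or more and 16825 and 9648 UMIs in cells with 3. Nrp1, low in the group as a whole, stood at 65.5 and 53.1 CPM in cells with a UMI of Foxc2, Ebf2, Pax3 or Alx1 and at 137 and 149 CPM in the 22 and 47 cells with none of them. Endothelial genes moved with it. Kdr, a VEGF receptor gene, stood at 55.5 and 45.6 CPM in cells with a factor and at 134 and 177 CPM in those with none, and Lmo2, a factor gene of blood and vessels, at 30.7 and 37.8 CPM and at 67.1 and 163 CPM. The 5 endothelial markers summed to 116 and 56.5 CPM in cells with a factor and to 150 and 260 CPM in those with none, and their part in the Nrp1 level was not tested. These contrasts are within the same libraries and were not tested.

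The same rule applied to the LSD1 KO libraries took 94 of 4850 cells (1.94%, exact 95% interval 1.57 to 2.37) and 145 of 2450 cells (5.92%, 5.02 to 6.93). The mean share was 3.93% ± 2.81 in LSD1 KO and 6.06% ± 2.55 in WT (SD, n = 2 each, exact permutation test, two-sided p = 0.667, where the smallest p the design allows is 0.33). The difference of −2.13 percentage points was smaller than the spread between replicates, and the libraries overlapped. Median depth was 12835 and 24641 UMIs in LSD1 KO replicates 1 and 2, against 14426 and 9593 UMIs in WT replicates 1 and 2. The higher share was thus in the deeper library in LSD1 KO and in the shallower one in WT. With every cell thinned to 2000 UMIs before the rule was applied, 0 of 4850 and 0 of 2450 LSD1 KO cells met it (upper limits 0.0760% and 0.150%), against 19 (0.519%) and 92 (1.45%) WT cells. With 4 of the 7 genes asked for, 14 (0.289%) and 25 (1.02%) LSD1 KO cells met it, against 72 (1.97%) and 267 (4.21%) WT cells, and without Twist1 in the rule 0.412% and 1.55%, against 2.49% and 5.27%. In these 3 versions both LSD1 KO libraries lay below both WT libraries. They also did without Ebf2 (1.38% and 3.51%, against 3.83% and 6.88%) and without Alx1 (1.24% and 3.51%, against 3.93% and 7.05%), and the genotypes overlapped with Foxc2, Pax3, Col13a1 or Col23a1 taken out of the rule. Without the exclusion by the 6 genes both LSD1 KO libraries again lay below both WT libraries (1.94% and 5.92%, against 6.34% and 9.21%). That exclusion took out 76 and 85 WT cells and 0 LSD1 KO cells. The rule was set on WT libraries, which favours lower shares in LSD1 KO. The cells of the mirror rule were nearly absent, at 3 and 1 in LSD1 KO, against 810 and 933 in WT.

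**Figure D4:**
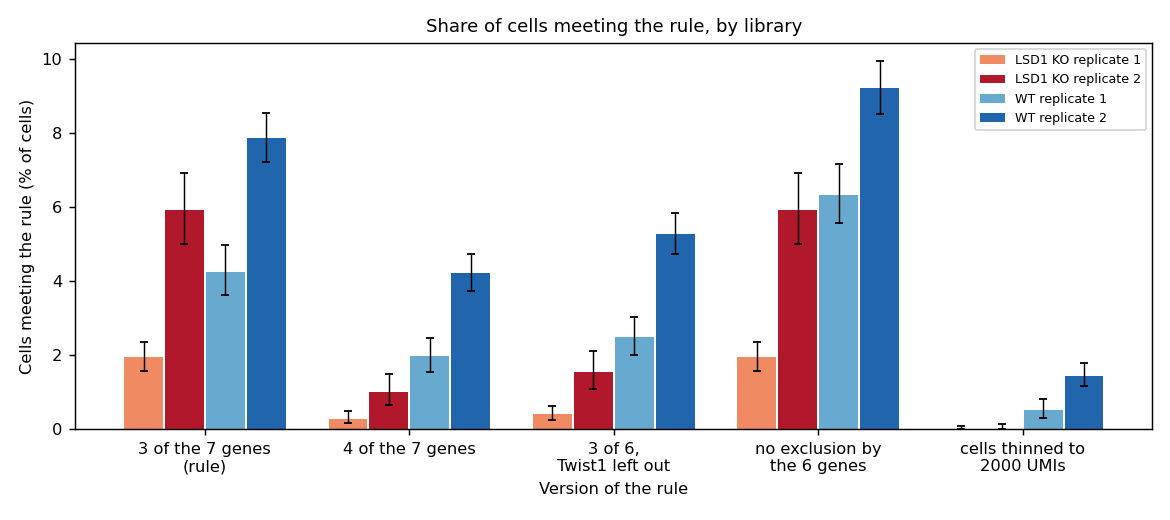
Share of cells that met the rule, in percent of cells past the depth filter, for the 2 LSD1 KO and the 2 WT libraries under 5 versions of the rule, with exact 95% intervals as bars. Under the rule as used the libraries overlap (1.94% and 5.92% in LSD1 KO, 4.26% and 7.87% in WT), and with cells thinned to 2000 UMIs the LSD1 KO libraries lie at 0.

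The LSD1 KO cells that met the rule held the 7 genes in other proportions than the WT cells. Foxc2 was read in 2 of 94 (2.13%) and 2 of 145 (1.38%) of them, against 38.5% and 37.7% of the WT cells. Col13a1 was read in 34.0% and 16.6%, against 62.8% and 52.3%, and Col23a1 in 58.5% and 51.0%, against 85.9% and 92.2%. Twist1 was read in 93.6% and 90.3% of the LSD1 KO cells that met the rule, against 84.6% and 76.6% in WT, and Alx1 in 45.7% and 53.1%, against 32.1% and 37.3%. Median depths of the cells that met the rule were 16952 and 31502 UMIs in LSD1 KO and 17396 and 10152 UMIs in WT. The share of cells with a UMI rises with depth, while CPM divide by the UMIs of the cell group. In CPM, Foxc2 stood at 1.67 and 0.378 in the LSD1 KO cells that met the rule, against 34.9 and 46.5 in WT. Pax3 stood at 35.7 and 26.1 CPM, against 39.5 and 81.3 CPM. Twist1 and Alx1, read in a larger share of the LSD1 KO cells, were lower there in CPM. Twist1 stood at 74.1 and 63.5 CPM, against 148 and 127 CPM in WT, and Alx1 at 30.6 and 18 CPM, against 39.8 and 58.0 CPM. Outside the rule, Twist1 was read in 30.8% and 44.6% of the other LSD1 KO cells, against 22.7% and 16.3% of the other WT cells. For Alx1 these shares were 7.49% and 8.76%, against 1.31% and 1.83%.

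**Figure D5:**
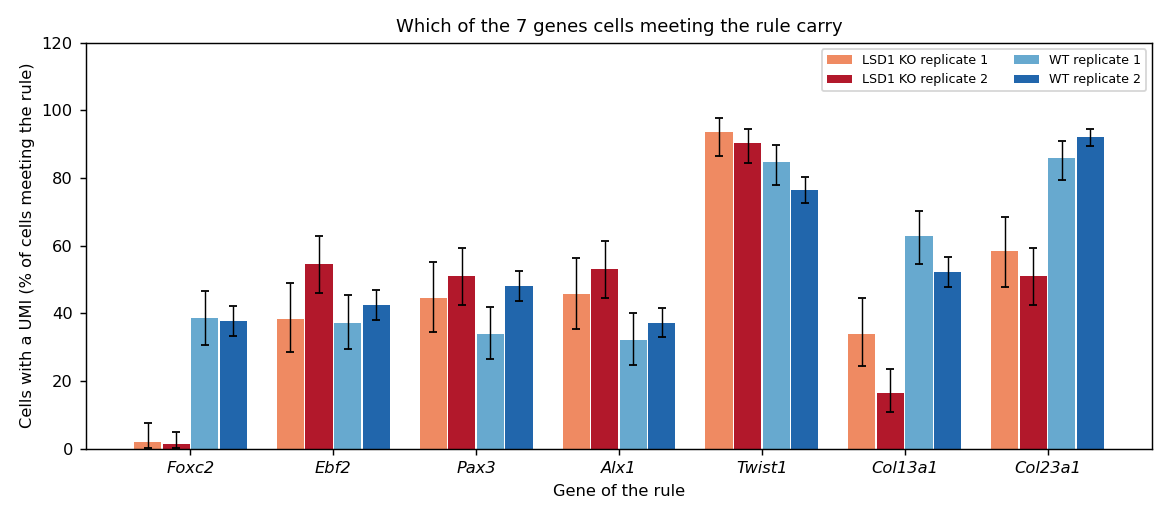
Percent of the cells meeting the rule that had at least 1 UMI of each of the 7 genes, for the 2 LSD1 KO and the 2 WT libraries, with exact 95% intervals as bars. Foxc2 lies at 2.13% and 1.38% in LSD1 KO and at 38.5% and 37.7% in WT, and Twist1 at 93.6% and 90.3% in LSD1 KO and at 84.6% and 76.6% in WT.

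Genes outside the rule were set side by side, with no test between genotypes. Ptgds stood at 1.67 and 0.378 CPM in the LSD1 KO cells that met the rule, against 343 and 232 CPM in the WT cells, and at 0.810 and 1.04 CPM in the other LSD1 KO cells. Ebf1 stood at 155 and 277 CPM in the LSD1 KO cells that met the rule and at 205 and 257 CPM in the other LSD1 KO cells, and these overlapped, unlike in WT (97.7 and 119 CPM, against 9.39 and 13 CPM). Tcf15 was likewise at 15.0 and 19.3 CPM in the LSD1 KO cells that met the rule and 17.8 and 25.1 CPM in the other LSD1 KO cells. Crabp1 differed, at 126 and 104 CPM in the LSD1 KO cells that met the rule and 19.5 and 28.8 CPM in the other LSD1 KO cells, and did not overlap, as in WT (134 and 131 CPM, against 14.3 and 17.7 CPM).

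Over whole EBs, LSD1 KO against WT gave 3838 of 16918 genes higher (22.7%) and 3668 lower (21.7%) in LSD1 KO by edgeR without a block, or 4800 and 2627 with scaling by library totals alone, which moved the median log2 fold change of all genes to 0.12. In such sums fewer cells of a type and less RNA per cell cannot be told apart. The rule was set on WT libraries, which favours lower values of its 13 genes in LSD1 KO, so these are given here without a test. Of the 7 genes, Foxc2 stood at 0.152 and 0.112 CPM in LSD1 KO, against 2.58 and 5.52 CPM in WT (log2 fold change −5.06). Col13a1 (−2.78) and Col23a1 (−2.82) were also lower. Twist1 stood at 0.06, Alx1 at 0.11, Ebf2 at −0.53 and Pax3 at −0.84, and Pax3 at −1.41 without WT replicate 1. All 6 excluding genes were lower, with log2 fold changes between −4.84 (Tnni1) and −7.04 (Hand2). Ptgds stood at 0.833 and 0.979 CPM in LSD1 KO, against 27.0 and 43.2 CPM in WT (−5.41, SE 0.32), Ebf1 at 204 and 259 CPM, against 13.8 and 21.7 CPM (3.57, SE 0.28), and Tcf15 at 17.8 and 24.6 CPM, against 3.77 and 4.48 CPM (2.23, SE 0.22).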

How the data were processed

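Day 6 EBs of 2 LSD1 KO and 2 WT biological replicates were profiled by 10x 3′ scRNA-seq. The authors aligned the reads to mm9 with Cell Ranger 7.1.0 and deposited unfiltered matrices of UMI counts per gene (25209 features) and barcode; the study itself kept barcodes with 500 UMIs and 500 genes and used Seurat 4.3.0. Groups were taken from the labels. The study calls the replicates biological, and each has 1 library.

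The depth filter used here was 2000 UMIs and 1000 genes per barcode, and no doublet caller was run. The members of the group and the 29 gene lists were chosen with earlier results of these data known. UMI counts were summed per library and cell group. Genes were filtered with filterByExpr, scaled by TMM and tested with edgeR 4.0.16 (quasi-likelihood, R 4.3.3) with Benjamini-Hochberg adjustment and a threshold of 0.05. Within WT the library was a block, since both cell groups come from the same library; LSD1 KO against WT had no block. CPM are per 1000000 UMIs of the cell group. Named genes were the 10 largest rises and falls outside the rule whose higher group averaged 50 CPM or more, with both sums of one group above both of the other, and up to 4 called genes from each list with its cell type markers. Fold changes with SE are log2. Cells that met the rule share a library, so tests rest on 2 libraries per group. The calls between cell groups leave few residual degrees of freedom, and edgeR shares the spread over genes.

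The alternatives were DESeq2 1.42.0, no TMM, no low-count filter, the block changed, each replicate left out, 4 of the 7 genes, cells thinned to 2000 UMIs, and cells over 3 times the median left out. Added after seeing the data were the settings without members lacking all 4 factors and without members with 2 or more endothelial markers. Promoters are from RefSeq (GRCm38.p6). Some genes of the lists are counted but not reported here by name.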

Additional observations from a re-analysis of the deposited data

Results flagged for a closer look

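The largest rises and falls of the 2 WT comparisons, with Tcf15 and Crabp1, were screened for genes whose ratio of cells that met the rule to the other cells had one sign in both WT libraries and the opposite sign in both LSD1 KO libraries. The difference between the genotypes was not tested, and other genes of the lists, such as Msx1, show the same turn. In 7 genes the cells that met the rule lay below the other cells in WT and above them in LSD1 KO. The mean log2 ratio in LSD1 KO was 1.75 for Nrp1, with 21.2 and 18 CPM in cells meeting the rule and 6.76 and 3.77 CPM in the other LSD1 KO cells. It was 1.71 for Unc5c (49.6 and 32.5 CPM, against 18.5 and 7.07 CPM), 1.40 for Dpf3, 1.18 for Msx2 (14.5 and 8.89 CPM, against 7.49 and 2.53 CPM), 1.03 for Cdh6 (31.8 and 28.7 CPM, against 14.8 and 13.9 CPM), 0.80 for Bmp4 (42.9 and 7.56 CPM, against 16.1 and 6.30 CPM) and 0.49 for Clic6 (4.46 and 5.48 CPM, against 3.19 and 3.26 CPM). In 3 genes the cells that met the rule lay above the other cells in WT and slightly below them in LSD1 KO, with mean log2 ratios of −0.29 for Tcf15, −0.23 for Pdzd2 and −0.29 for Cer1, which was at no more than 1.26 CPM in LSD1 KO. In WT the other cells include the cardiac and lateral mesoderm-like cells, which hold Unc5c at 674 and 645 CPM and number 3 and 1 in LSD1 KO, and their part in the signs was not tested.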

How the results depend on the processing

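Against the other WT cells 2320 genes were called, and 1128 with DESeq2, 953 with no replicate block, 1097 with cells thinned before the rule and 1394 without members lacking all 4 factors. Against the cardiac and lateral cells 2283 were called, and 979 with DESeq2, 1188 with no replicate block and 1347 with thinned cells. LSD1 KO against WT gave 7506 calls, 4928 to 6604 with 1 library left out (4928 without LSD1 KO replicate 2) and 8110 with a replicate block, where same-numbered libraries correlated at 0.193 over 2 pairs and share only a number. The mean share of members, 6.06%, was 3.09% with 4 of the 7 genes and 0.984% with thinned cells, and 4.26% or 7.87% without 1 WT library. Of genes at 10 CPM or more, 490 differed at least 2-fold from the other WT cells, against 909 with no minimum level, 1209 with thinned cells and 478 to 586 with 1 library left out. Directions turned against the other WT cells for Cdh5 (−0.67 with 4 of the 7 genes, −1.90 thinned, −3.38 without cells with endothelial markers), Ets1 (−1.09 thinned, −0.34 without those cells), Sox7 (−0.83 with 4 genes, −9.19 thinned), Lmo2 (−0.50 thinned), Neurod1 (−0.14 thinned) and Tal1 (−0.89 thinned). Of these turns only Cdh5 without cells with endothelial markers passed the edgeR test (adjusted p = 0.00176). The others had adjusted p from 0.160 to 0.987, so their calls were lost and no reversal was called. Cells with endothelial markers were taken from the Foxc2 Pax3 Alx1 cells alone, which lowers endothelial genes by construction. Against the cardiac cells directions turned for Cdh5 (−2.61 without cells with endothelial markers), Epcam (−0.19) and Shh (−0.27), both with 4 genes. Epcam and Shh did not pass the test there. The cause of the other turns was not tested. Leaving out a WT library gave a ratio within 1 library and no test within WT. Of 119 genes followed against the other WT cells, 75 kept their call with no replicate block. With DESeq2 85 kept it and 29 lost it, and the remaining genes had no adjusted p there.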
